A study of Mus musculus with 86 samples.

Results

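Isoproterenol, a synthetic agonist of beta-adrenergic receptors, was infused into C57BL/6 mice for 14 days at 120 µg/g/day, and RNA of their hearts was compared with that of untreated C57BL/6 mice. All arrays titled with this inbred strain were taken, 10 of treated and 11 of untreated hearts, which makes 21 of the 86 arrays of the series. Both groups were of the same strain, and the labels name no transgene, deletion or other agent in either. Mice were assigned to infusion at random per the labels, which speak of 20 mice for a line that has 21 arrays. The control mice are described as untreated, so that a pump or vehicle in them is not stated. The other arrays, 22 of FVB, 21 of B2KO and 22 of B6129SF2/J, were of hearts treated and untreated in the same way. They are used to show where C57BL/6 differed, and they also count in the spread, filter and probe set choice of the fit. By its name B2KO is a knockout line. Per the study's description, C57BL/6 was the line in which infusion was followed by diastolic dysfunction, against systolic dysfunction in FVB and B2KO.

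Beta-adrenergic receptors of the heart couple to the G protein Gs and raise cyclic AMP, which activates protein kinase A. The kinase phosphorylates calcium-handling proteins and the transcription factor CREB, which binds the cyclic AMP response element (CRE) in promoters. Agonist given for days is a standard way to produce cardiac hypertrophy and fibrosis in mice, and fibrosis is laid down by fibroblasts that turn on periostin, tenascin C and collagens.

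A single probe set stood for each gene, and 11962 genes passed the filter on dim signals and were tested. Levels are log2 values relative to the median probe set of the array, so 0 is the array median, and a change is the mean of treated minus the mean of untreated hearts on that log2 scale, ± SE. Where 3 levels are given for a group they are its lowest, median and highest array. A gene was called at a limma adjusted p under 0.05, adjusted over all genes tested. Arrays stand for mice per the labels, and the p-values rest on how widely arrays vary within their groups, pooled over the 8 groups of the 4 lines. They take arrays as independent and make no allowance for the sets of arrays described below. In bulk tissue, fewer cells of a type and less RNA per cell cannot be told apart.

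The arrays did not differ by treatment alone. Bacterial control RNAs that are added to a sample, among them dap, should not depend on the heart. The dap signal was 5.68 to 9.97 in treated and 1.93 to 6.15 in untreated C57BL/6 hearts, with medians of 8.89 and 3.95. It ran the other way in the other lines, with medians of 3.52 in treated and 6.62 in untreated FVB hearts, 4.55 and 6.17 in B2KO, then 1.75 and 5.20 in those of B6129SF2/J. After these values were seen, the C57BL/6 arrays were put into sets by limits of 5 and 8: 6 treated arrays of high dap signal (replicates 2, 3, 4, 5, 6 and 8), 4 treated of middle signal (1, 7, 9 and 10), 3 untreated of middle signal (9, 10 and 11) and 8 untreated of low signal (1 to 8). The labels do not name these sets. The hybridization controls bioC minus bioB were −0.36 to −0.14 in the 4 treated arrays of middle signal and 1.10 to 2.28 in all others. Untreated replicate 11 had a 3′ minus 5′ Gapdh signal of 7.43, against −0.28 to 0.35 in the other 20 arrays, and its correlation with the other untreated arrays had a median of 0.916. Untreated replicates 9 and 10 correlated with the treated arrays at a median r of 0.956, with untreated 1 to 8 at 0.943, and untreated 1 to 8 with the treated arrays at 0.919. The 75th percentile averaged 2.74 ± 0.19 in treated and 2.55 ± 0.28 in untreated hearts (SD, n = 10 and 11; two-sided permutation test, p = 0.0752, 0.226 adjusted over 3 measures).

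Changes over all 21 arrays are therefore followed by a second value. This value within the middle set is the difference between the 4 treated and 3 untreated arrays of middle dap signal, which share that signal but not the bioC minus bioB value, and its median SE was 0.45, against 0.26 over all arrays. In that smaller comparison 10 of 11962 genes (0.0836%) passed and 1551 had an unadjusted p under 0.05. With these arrays centred 95 passed, and with C57BL/6 arrays alone in the fit 89. A value in square brackets after it is the one without untreated replicate 11, given where leaving out that array moved it by over 1.5 times and by over 0.3 in log2. Within the middle set no gene named below passed, except where it is said to pass. With the dap signal as a covariate, 476 genes were called higher and 882 lower. Of the 157 called genes named here, 48 lost the call with this covariate, at adjusted p of 0.0522 to 0.49: Acta2, Aif1l, Alas2, Atp5g3, Bgn, Bnip3, Bst2, Ccl12, Cidea, Col1a1, Comp, Crem, Cspg4, Ctsd, Dbp, Dusp1, Edn1, Egr1, Eng, Fabp4, Gclm, Gja5, Hcn2, Hk1, Hspa1b, Il4ra, Ldha, Maff, Malat1, Mfap5, Mmp14, Msln, Mt2, Nr4a1, Omd, Pde3a, Ppara, Rgs5, S100a8, Sdf2l1, Slc25a37, Smad6, Tbx5, Thy1, Tie1, Tnni3, Upk1b and Vtn. A lost call alone does not show a smaller change. Dbp stood at −1.63 with the covariate, against −1.41 without it. The others of these genes had smaller changes with it, by little in S100a8 (1.21 against 1.25) and by more in Egr1 (0.81 against 1.72). The part of the dap sets in each change was not tested, and over all arrays high and low dap signal cannot be told apart from treatment.

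**Figure D1:**
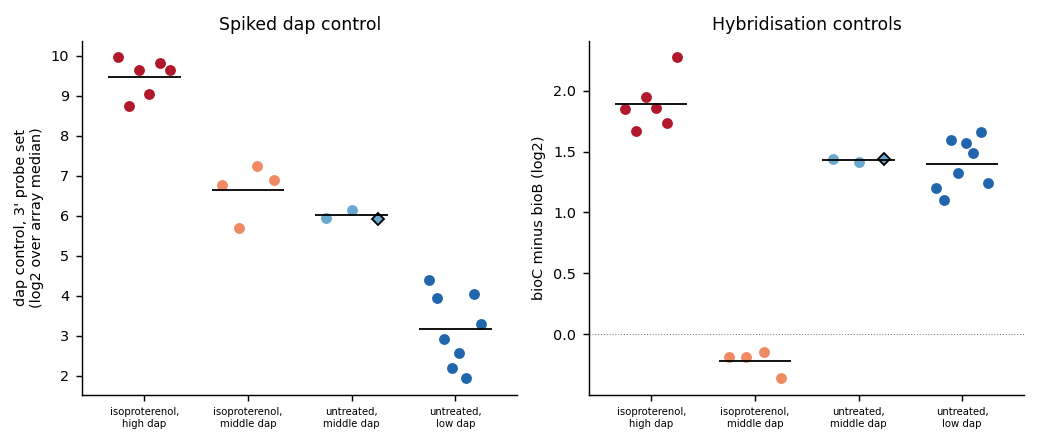
Signals of added control RNAs in the 21 C57BL/6 arrays, by treatment and set: dap on the left and bioC minus bioB on the right, both log2, with a point per array, a bar at the mean and a diamond for untreated replicate 11. Treated arrays of high dap signal lie above 8, untreated arrays of low signal below 5, and the 4 treated arrays of middle signal are the only ones below 0 for bioC minus bioB.

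Over all 21 arrays, 2335 genes were called, 19.5% of those tested: 1500 (12.5%) were higher and 835 (6.98%) lower in treated hearts. By at least 1 log2 unit, 709 genes rose and 314 fell. Arrays scaled another way gave another balance: when the median of the tested genes was set equal in all arrays, 1461 were called higher and 2032 lower, so that 41.8% of calls were higher, against 64.2% without centring. The median change of all genes was 0.09 as deposited and −0.07 after centring, and changes near those sizes depend on the scale. The counts of gene lists below stand against these shares of all genes. In 100 genes (0.836%) every treated array lay above every untreated one, and in 27 (0.226%) every treated array lay below.

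The largest rises among genes whose groups did not overlap were led by Junb and Timp1. Junb, a subunit of the transcription factor AP-1, read 1.87, 2.88 and 6.30 in treated hearts, against −1.08, 0.32 and 1.78 in untreated hearts. The lowest treated array lay just above the highest untreated one, and Junb rose by 3.06 ± 0.43 (adjusted p = 1.93e-07). Replicates 4 and 8 read 6.30 and 6.01 and the other 8 treated arrays 1.87 to 3.76, and without these 2 arrays Junb rose by 2.36. Timp1, an inhibitor of matrix metalloproteinases, read 2.05, 3.41 and 5.48 in treated hearts, against −0.67, 0.58 and 1.52 in untreated hearts. The groups lay apart, and Timp1 rose by 3.00 ± 0.40, which is 8.03-fold (adjusted p = 6.26e-08). Within the middle set the values were 1.46 [0.72] for Junb and 1.72 for Timp1.

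Other large rises without overlap were those of Dusp5, Dio2, Pfn1, Otub1, Serpina3n and Olfml2b. Dusp5, a nuclear phosphatase that inactivates the kinase ERK, rose by 2.58 ± 0.31 (1.91 within the middle set). Its levels were 2.23, 3.02 and 4.34 in treated and −0.49, 0.54 and 1.45 in untreated hearts, with no overlap. Dio2, the deiodinase that activates thyroid hormone and a known cyclic AMP target, rose by 2.44 ± 0.31 (1.29). Pfn1, the actin-binding protein profilin, rose by 2.36 (1.34 [0.65]), and Otub1, a deubiquitinating enzyme, by 2.88 (2.29 [1.38]). The untreated arrays were split for Pfn1: replicates 5, 9 and 10 read 5.78, 5.81 and 5.54 and the others 2.85 to 3.94. Treated hearts read 5.91 to 6.78, so the lowest lay just above the highest untreated one. Serpina3n, a secreted protease inhibitor of the acute phase, rose by 2.24 (2.16). Olfml2b, an extracellular olfactomedin-like protein, rose by 2.33 (1.54).

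The largest falls among genes without overlap were in B3galt2, Lgi1, Frem2, Hamp and Timp4. B3galt2, a galactosyltransferase, read −0.98, 0.04 and 0.50 in treated hearts, against 1.92, 2.57 and 3.99 in untreated hearts, and fell by 2.84 in log2 units (SE 0.31, adjusted p = 3.26e-10). Lgi1, a secreted protein best known from neurons, read −1.55, −0.56 and 0.48 in treated hearts, against 1.18, 2.24 and 2.62 in untreated hearts, and fell by 2.68 (SE 0.38). Treated levels of both genes reached below the array median, so the sizes of these falls rest on dim signals. Frem2, a membrane-anchored matrix protein, fell by 2.22 (−1.78 within the middle set), and Hamp, the iron hormone hepcidin, by 2.03 (−1.46). Asb5, Fgd4, Nsmaf, Abcb1b, Plscr2, Serpinb6b and Zfp51 fell by 1.29 to 1.85 on the log2 scale. Of these, Fgd4 activates the small G protein Cdc42, Nsmaf links a tumour necrosis factor receptor to sphingomyelinase and Abcb1b is a drug efflux pump. The within-set values of these 7 genes were all negative, from −1.63 for Asb5 to −0.75 for Fgd4.

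**Figure D2:**
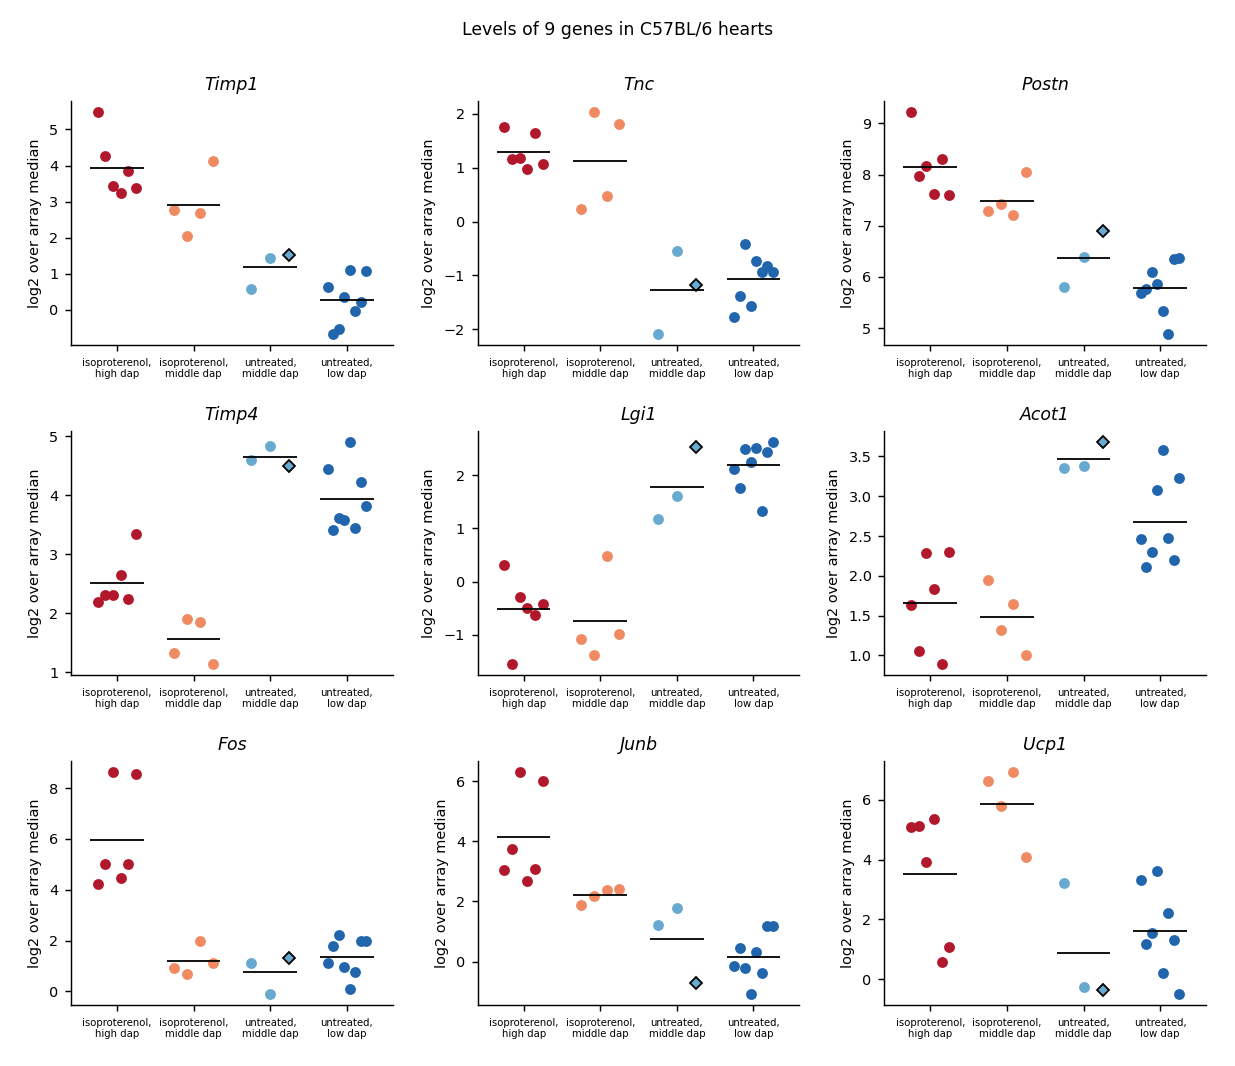
Levels of 9 genes in each C57BL/6 array (log2 relative to the array median), by treatment and dap set, with a point per array, a bar at the mean and a diamond for untreated replicate 11. Timp1, Tnc and Postn were higher and Timp4 and Lgi1 lower in all treated arrays than in all untreated ones, Acot1 overlapped slightly, Fos was high in treated arrays of high dap signal, and Ucp1 was highest in treated arrays of middle signal.

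Genes of the extracellular matrix rose in treated hearts. Of 21 matricellular and crosslinking genes tested, out of 23 listed, 16 rose and none fell, with a median change of 1.40, against 0.09 for all genes. Of 17 fibrillar matrix genes out of 19 listed, 11 rose and none fell, with a median of 1.10. Of 10 markers of activated fibroblasts, 9 rose and none fell, with a median of 1.38. Most of these 10 are also members of the matricellular or fibrillar list, Postn, Cilp, Tnc, Meox1 and Comp among them. The 3 lists are therefore not separate results. These lists and this direction were known from earlier results of the same arrays and are not independent evidence. At an unadjusted p under 0.05, too, 0, 0 and 0 members of the 3 lists were lower. Within the middle set the medians were 0.55, 0.47 and 0.73, against −0.28 for all genes, and 19 of 21, 15 of 17 and 9 of 10 members were above 0. With dap as a covariate 11 of 21, 7 of 17 and 5 of 10 rose and none fell, with medians of 1.18, 0.84 and 1.11.

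Tnc, Postn and Cilp, secreted proteins of activated fibroblasts, were among the members with the largest rises. Tenascin C (Tnc) read 0.23, 1.17 and 2.03 in treated hearts, against −2.10, −0.94 and −0.42 in untreated hearts, and rose by 2.36 ± 0.36 (adjusted p = 1.52e-06). It was as large within the middle set, at 2.41, but untreated levels lay below the array median. Between treated arrays of high and middle signal it differed by 0.17 (adjusted p = 0.865). Periostin (Postn) read 7.22, 7.79 and 9.22 in treated hearts, against 4.88, 5.85 and 6.89 in untreated hearts, and rose by 1.94 ± 0.35 (1.13 within the middle set). All treated arrays lay above all untreated ones for both genes. Cilp, a matrix protein first known from cartilage, rose by 2.19 ± 0.37 (1.19), and Sfrp2, a secreted modulator of Wnt signalling, by 2.27 ± 0.33 (1.83). Thbs3, a thrombospondin, rose by 1.97 (1.69 [0.66]), and Comp, of the same family, by 1.28 (0.36 [0.04]). Meox1, a homeobox factor of activated fibroblasts, rose by 1.63 (0.38 [0.78]).

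Among collagens, Col1a1, the main chain of collagen I, read 6.47, 6.86 and 7.72 in treated and 3.94, 5.76 and 6.42 in untreated hearts and rose by 1.50 ± 0.44 (adjusted p = 0.0101), with no overlap. Its other probe set changed by 0.24 and was not called (adjusted p = 0.487), and with dap as a covariate the probe set used stood at 0.98 (adjusted p = 0.164). Col3a1, the chain of collagen III, rose by 1.03 ± 0.23 (0.50 [0.86] within the middle set), and Col5a2 of collagen V by 1.34 (0.48 [0.82]). The fibre-associated genes Fbln2, Mfap4 and Fn1 rose by 1.91, 1.60 and 1.46, with 1.77 [1.01], 0.68 and 0.35 within the middle set. In the basement membrane list 2 of 13 rose, near the 12.5% of all genes: Hspg2 (perlecan) by 1.41 and Col18a1 by 1.03. None fell, and the median of the list was 0.40 (0.01 within the middle set). Of 8 small leucine-rich proteoglycans, Bgn (biglycan) rose by 1.42 (0.64) and Omd fell by 0.74, a call lost when any 1 of 9 of the 21 arrays was left out (adjusted p up to 0.0811), and the median was 0.20.

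Inhibitors of matrix proteases moved in opposite directions. Against the rise of Timp1, Timp4, the member of the family most typical of heart, read 1.14, 2.22 and 3.35 in treated hearts and 3.41, 4.22 and 4.90 in untreated hearts. The groups lay apart, and Timp4 fell by 2.00 in log2 units (SE 0.43, adjusted p = 0.000365), with −3.09 within the middle set. Of 16 proteases and inhibitors tested of 20 listed, 5 rose and 1 fell. Mmp14, the membrane-bound protease that activates Mmp2, rose by 1.24 (0.95), and stromelysin (Mmp3) by 1.42, of which 0.03 was seen within the middle set.

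In the TGF-beta pathway, the main inducer of matrix genes, 4 of 21 genes rose and 1 fell, with a median of 0.34. Within the middle set the median was −0.20 and 7 of 21 were above 0. With dap as a covariate 3 rose and 0 fell, with a median of −0.006. The ligand Tgfb1 read 3.84, 4.24 and 4.58 in treated and 0.45, 3.00 and 3.58 in untreated hearts, rose by 1.53 ± 0.32 without overlap and stood at 1.88 [0.90] within the middle set. Tgfb3 rose by 1.50 (0.88 [0.14]), the activin subunit Inhbb by 1.62 (0.46) and the inhibitory Smad6 by 1.00 (0.32 [−0.20]), which stood at 0.44 with dap as a covariate (adjusted p = 0.382). Markers of resident fibroblasts also rose, 6 of 11 with none lower and a median of 0.63 (0.26 within the middle set). Among them Pi16 rose by 1.57 without overlap (1.36), Thy1 by 1.44 and Mfap5 by 1.43. With dap as a covariate 1 of the 11 rose and 0 fell, with a median of 0.49. The list shares Col1a1 with the fibrillar matrix list. The mean level of the 11 markers was 5.71 to 6.63 in treated and 4.32 to 5.90 in untreated hearts, and the part of fibroblast number in the matrix changes was not tested.

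**Figure D3:**
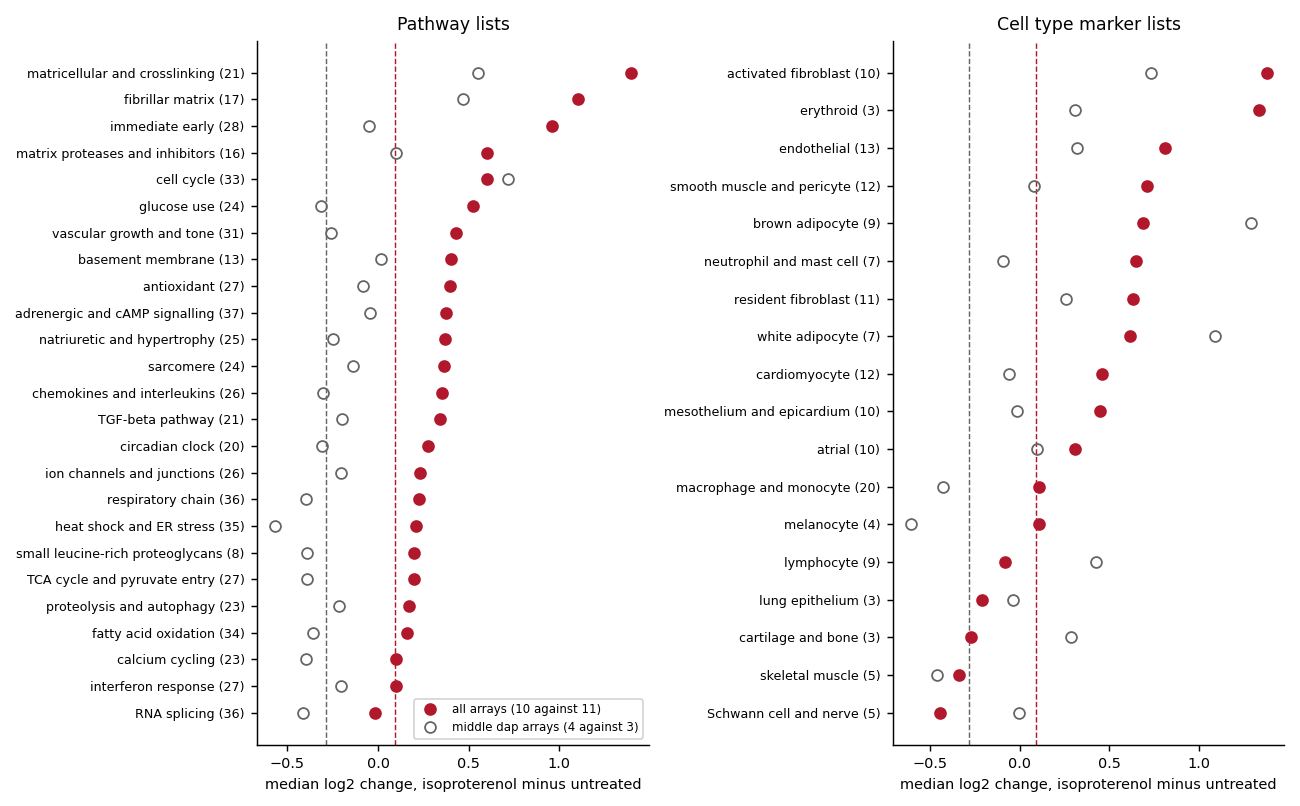
Median log2 change, treated minus untreated, of each gene list: filled points over all 21 arrays, open points within the middle dap set, and dashed lines at the medians of all genes, 0.09 and −0.28. Activated fibroblast and matricellular lists lie at 1.38 and 1.40 over all arrays and at 0.73 and 0.55 within the set, the immediate early list at 0.96 and −0.05, and the brown adipocyte list at 0.69 and 1.29.

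Immediate early genes, which are transcribed within minutes of a stimulus, rose in treated hearts over all arrays. By the median of the list they were higher in treated arrays of high than of middle dap signal. These sets of treated arrays also differ in bioC minus bioB. Of 28 genes tested out of 30 listed, 15 rose and none fell, with a median of 0.96. Within the middle set the median was −0.05 and 13 of 28 were above 0. Between the 6 treated arrays of high and the 4 of middle signal the median difference was 1.37, where 199 of all genes (1.66%) were called higher in the arrays of high signal and the median of all genes was 0.38. Treated replicates 4 and 8, both of high signal, were the 2 highest treated arrays for 24 of the 28 genes (85.7%), against 8.39% of all genes. Without these 2 arrays, left out after their values were seen, 7 of 28 rose and the median was 0.46, and with dap as a covariate on all arrays 5 rose.

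Fos, a partner of Jun proteins in AP-1, shows this pattern. It read 0.69, 4.33 and 8.62 in treated hearts, against −0.11, 1.12 and 2.22 in untreated hearts, and rose by 2.86 ± 0.62 (adjusted p = 0.000478). The groups overlapped: the 6 treated arrays of high signal read 4.22 to 8.62 and the 4 of middle signal 0.69 to 1.99. Replicates 4 and 8 read 8.62 and 8.55, and without them Fos rose by 1.73 (adjusted p = 0.0273). The difference between these treated sets was 4.79 (adjusted p = 9.43e-05), and the value within the middle set was 0.41. Btg2, an antiproliferative protein, rose by 2.11 ± 0.43, with 0.04 within the middle set and 2.18 between treated sets. Its levels were 8.56 and 8.74 in replicates 4 and 8 and 3.55 to 4.96 in the other 8 treated arrays, and without those 2 it rose by 1.24 (adjusted p = 0.0178). Ier2, a nuclear early response protein, rose by 2.00, with 0.47 and 2.11, and by 1.26 without replicates 4 and 8. Egr1, a zinc finger factor of the same response, rose by 1.72, with −0.50 [−0.12] and 3.48, a call that ended without replicates 4 and 8 (0.77, adjusted p = 0.213). Junb stood at 1.46 [0.72] within the middle set and 1.94 between the treated sets. The orphan receptor Nr4a2 rose by 1.67 (0.87 within the middle set), and its relative Nr4a1 by 1.37, a call lost on leaving out any 1 of 5 of the 21 arrays (adjusted p up to 0.12). Without replicates 4 and 8 Nr4a2 rose by 1.10 and Nr4a1 stood at 0.64 (adjusted p = 0.38).

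Promoter sequences were read for these genes because CREB, the factor that cyclic AMP activates, binds the CRE. The windows run from 250 bases before to 50 after the start of the gene, from RefSeq on GRCm38.p6. The CRE was searched as TGACGTCA, its core as TGACGT or, on the other strand, ACGTCA, and the AP-1 motif as TGANTCA, which reads the same on both strands; each full CRE also holds the core. Among 27025 genes with a window, 2.03% held the CRE, 8.37% the core and 8.97% the AP-1 motif. Of 23 immediate early genes with a window, 3 held the CRE (13%), 9 the core and 1 the AP-1 motif. The 3 with the CRE, Btg2, Dusp1 and Maff, were among the 13 called higher that had a window. Of those 13, 4 held the core (30.8%), against 39.1% of the whole list, and 0 the AP-1 motif. Of the 12 largest rises, Dio2 held the CRE, Dio2, Dusp5 and Timp1 the core and Zeb2 the AP-1 motif. Of 9 large falls with a window, none held the CRE, B3galt2 held the core, and Fgd4 and Hamp the AP-1 motif. The 5 windows below show the genes of these groups with a full CRE, and Fos with its core, in capitals. The motif starts −166 bases from the start of Btg2, −95 from that of Dio2, −143 from that of Dusp1, −66 from that of Fos and −29 from that of Maff. Dusp1 holds a further core at −191. A match is a description and shows no binding.
Btg2 (chr1:134079106-134079405, − strand): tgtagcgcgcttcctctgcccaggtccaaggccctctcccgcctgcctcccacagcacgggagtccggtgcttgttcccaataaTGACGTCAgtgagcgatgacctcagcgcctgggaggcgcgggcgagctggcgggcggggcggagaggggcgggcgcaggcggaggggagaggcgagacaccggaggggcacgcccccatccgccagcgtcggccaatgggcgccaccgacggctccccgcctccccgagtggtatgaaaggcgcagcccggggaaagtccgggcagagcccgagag
Dio2 (chr12:90738989-90739288, − strand): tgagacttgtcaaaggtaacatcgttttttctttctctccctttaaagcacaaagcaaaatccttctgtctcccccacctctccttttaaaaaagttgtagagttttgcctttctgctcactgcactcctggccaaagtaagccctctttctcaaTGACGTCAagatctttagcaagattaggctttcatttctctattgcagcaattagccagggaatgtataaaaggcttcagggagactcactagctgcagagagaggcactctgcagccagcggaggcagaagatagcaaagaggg
Dusp1 (chr17:26508423-26508722, − strand): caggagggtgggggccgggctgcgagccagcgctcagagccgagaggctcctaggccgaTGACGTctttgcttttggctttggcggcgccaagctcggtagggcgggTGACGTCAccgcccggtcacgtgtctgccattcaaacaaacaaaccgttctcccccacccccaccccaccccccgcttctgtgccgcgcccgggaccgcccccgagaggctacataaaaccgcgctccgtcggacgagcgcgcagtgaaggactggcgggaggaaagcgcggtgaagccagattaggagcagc
Fos (chr12:85473640-85473939, + strand): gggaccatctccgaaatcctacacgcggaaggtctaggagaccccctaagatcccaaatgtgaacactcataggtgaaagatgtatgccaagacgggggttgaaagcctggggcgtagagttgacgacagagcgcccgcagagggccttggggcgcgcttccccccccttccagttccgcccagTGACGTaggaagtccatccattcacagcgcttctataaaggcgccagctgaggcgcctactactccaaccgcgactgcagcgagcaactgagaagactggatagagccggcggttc
Maff (chr15:79347270-79347569, + strand): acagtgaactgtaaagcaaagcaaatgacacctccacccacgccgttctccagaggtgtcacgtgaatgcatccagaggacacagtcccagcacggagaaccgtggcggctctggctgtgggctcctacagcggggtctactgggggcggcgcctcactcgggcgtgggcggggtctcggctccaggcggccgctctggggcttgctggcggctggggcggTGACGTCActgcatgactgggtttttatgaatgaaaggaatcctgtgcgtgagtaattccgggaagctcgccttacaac

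Beside these motifs stand changes of different kinds. Dio2, with a full CRE, read 2.10, 2.93 and 4.04 in treated hearts, against −0.79, 0.50 and 1.32 in untreated hearts. The groups lay apart, and the rise was 1.29 within the middle set. Dusp1, a phosphatase of mitogen-activated kinases, rose by 1.07 over all arrays, with −0.11 within the middle set and 1.86 between treated sets, a call that ended without replicates 4 and 8 (0.55, adjusted p = 0.0746). Maff, a small Maf transcription factor, rose by 0.96, with 0.02 and 0.47.

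Of 37 genes of adrenergic and cyclic AMP signalling tested, 12 rose and 2 fell, with a median of 0.38 (−0.04 within the middle set). Arrb1, the arrestin that uncouples beta-adrenergic receptors, read 2.88, 3.06 and 3.89 in treated and 0.51, 1.75 and 2.78 in untreated hearts and rose by 1.50 ± 0.27 without overlap (1.25 [0.64] within the middle set). Pde3a, a phosphodiesterase that degrades cyclic AMP in heart, rose by 1.40 ± 0.39 (1.25 [0.37]), and Pde4d, of another family with the same substrate, by 1.07 (0.47 [0.78]). Pde4b, of the same family as Pde4d, stood at 0.56 on the probe set used (adjusted p = 0.101), while its other probe sets, at 1.07 and 1.10, were called higher. Sik1, a kinase gene induced by cyclic AMP, rose by 2.13 (1.09). Crem, a relative of CREB, rose by 0.78, a call lost on leaving out any 1 of 4 of the 21 arrays (adjusted p up to 0.0611). Akap5, which anchors protein kinase A, fell by 1.56, with −0.32 [0.32] within the middle set.

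The usual markers of hypertrophy did not pass. Nppa, the atrial natriuretic peptide, read 9.73, 10.51 and 11.30 in treated and 9.28, 9.79 and 10.62 in untreated hearts, a difference of 0.70 ± 0.33 (adjusted p = 0.13). Nppb, the B-type peptide, differed by 0.32 ± 0.41 (adjusted p = 0.631) and stood at −1.82 within the middle set. Skeletal actin (Acta1) differed by −0.42 ± 0.51, the alpha myosin heavy chain Myh6 by 0.37 ± 0.18, the beta chain Myh7 by −0.20 ± 0.41 and the stretch-response gene Ankrd1 by −0.13 ± 0.31, with overlapping groups in each (adjusted p from 0.142 for Myh6 to 0.825 for Ankrd1). In the list of 25 such genes 5 rose and 1 fell. Npr1, the receptor of both natriuretic peptides, rose by 1.42 ± 0.36 (1.93), the LIM protein Fhl1 by 1.13 (0.39), the smooth and cardiac muscle coactivator Myocd by 1.73 (0.47) and the cardiac factor Tbx5 by 1.17 (1.09 [0.39]). The call of Tbx5 ended after quantile normalization.

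Of 23 calcium cycling genes 2 rose and 3 fell, a share near the 19.5% of all genes called, and the median of 0.10 was near the 0.09 of all genes. Casq1, a calcium-storing calsequestrin, read 0.36, 1.44 and 2.19 in treated hearts, against 1.52, 2.88 and 4.02 in untreated hearts, and fell by 1.39 (SE 0.33, adjusted p = 0.0015). Trdn (triadin), which ties calsequestrin to the release channel, fell by 0.88. Within the middle set Casq1 stood at −1.92 and Trdn at −0.97 [−0.64]. The list also holds another calsequestrin, Casq2, whose change is not given here, and the fall of Casq1 does not speak for it. For Trdn all 5 other probe sets also read lower and were called. The sodium-calcium exchanger Slc8a1 rose by 1.76 on the probe set used and stood at −0.27 within the middle set. Of its 2 other probe sets 1 was called higher, at 1.105, and 1 lower, at −1.28. The calcium pump Atp2a2 rose by 0.62 ± 0.20 (adjusted p = 0.0175), with 0.00 within the middle set, and its call ended with arrays centred and with probe sets averaged, where the change was −0.07. Phospholamban (Pln), its inhibitor, differed by 0.40 (adjusted p = 0.111) and the release channel Ryr2 by 0.23 (adjusted p = 0.533), while the other probe set of Ryr2 was called higher, by 1.89 (adjusted p = 0.00985).

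Of the sarcomere genes 1 of 24 rose and none fell, with a median of 0.36. The 1 was cardiac troponin I (Tnni3), at 0.57, and its call was lost on leaving out any 1 of 14 of the 21 arrays (adjusted p up to 0.0886). It was also the 1 of 12 cardiomyocyte markers called, and the mean level of those 12 was 9.99 to 10.8 in treated and 9.55 to 10.8 in untreated hearts. Of 26 channel and junction genes 3 rose and none fell. Kcnh2, the channel of the rapid repolarizing potassium current, rose by 1.38 ± 0.30 (0.65 [0.08]). The pacemaker channel Hcn2 rose by 0.90 and the connexin Gja5 by 0.89, calls lost on leaving out any 1 of 2 and 3 of the arrays (adjusted p up to 0.0509 and 0.0669).

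Few genes of energy metabolism were called. Of 34 genes of fatty acid oxidation 2 rose and 1 fell, of 27 of the tricarboxylic acid cycle none was called, and of 36 of the respiratory chain 1 rose, with medians of 0.16, 0.20 and 0.23 over all arrays and −0.36, −0.39 and −0.40 within the middle set, where the median of all genes was −0.28. In the tricarboxylic acid list limma called 0 of 27 over all arrays, with 3 at an unadjusted p under 0.05, and 6 higher when every array of doubtful quality in the 4 lines was left out. Acot1, a thioesterase that releases fatty acids from their coenzyme A esters, was the gene of this group that fell. It read 0.89, 1.64 and 2.29 in treated hearts, against 2.12, 3.08 and 3.68 in untreated hearts, and fell by 1.30 (SE 0.28, adjusted p = 0.000365). The groups overlapped slightly, and the value within the middle set was −1.99. Bdh1, the ketone body dehydrogenase, rose by 1.85 ± 0.37 (1.21). The fatty acid receptor Ppara rose by 1.03 and the ATP synthase subunit Atp5g3 by 0.56, calls lost on leaving out any 1 of 4 and 7 of the arrays (adjusted p up to 0.0697 and 0.0728). Pdk4, the kinase that closes pyruvate dehydrogenase, differed by 0.84 ± 0.32 and did not pass (adjusted p = 0.0555).

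Of 24 genes of glucose use 2 rose and 1 fell, with a median of 0.52 (−0.31 within the middle set). Fbp2, the muscle fructose bisphosphatase, fell by 1.11 (SE 0.26; −1.41). Hexokinase 1 (Hk1) rose by 0.73 (0.17), and lactate dehydrogenase A (Ldha) by 0.97, a call lost on leaving out any 1 of 15 of the arrays (adjusted p up to 0.0921).

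Markers of brown fat were higher in some treated hearts. Of 9 markers tested 4 rose, with a median of 0.69 over all arrays and 1.29 within the middle set. Ucp1, the uncoupling protein that defines brown adipocytes, read 0.56, 5.12 and 6.93 in treated hearts, against −0.50, 1.31 and 3.63 in untreated hearts, and rose by 3.05 ± 0.89 (adjusted p = 0.00934). Of the 10 treated arrays 8, at 3.93 to 6.93, lay above the highest untreated one, and replicates 6 and 8 lay within the untreated range. Within the middle set Ucp1 stood at 4.99, and between treated arrays of high and middle signal at −2.33. Elovl3, a fatty acid elongase of brown fat, rose by 1.72 (3.12 within the middle set), and Cidea, a lipid droplet protein, by 1.15 without overlap (1.52 [0.87]). The mean level of the 9 markers was 4.66 to 6.27 in treated and 4.06 to 4.94 in untreated hearts. Of 7 white adipocyte markers Fabp4 rose, by 0.62, a call lost on leaving out any 1 of 8 of the arrays (adjusted p up to 0.0741). Of the 3 other probe sets of Fabp4, 1 was called higher, at 1.17, and 1 lower, at −0.73. The median of the 7 white markers was 0.62 over all arrays and 1.09 within the middle set, where all 7 were above 0. The 4 markers of brown fat called include Dio2, and the part of fat attached to the heart in its rise was not tested.

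Genes of cell division were among those that rose. Of 33 tested 12 rose and none fell, with a median of 0.60, and 0.72 within the middle set. Top2a, the topoisomerase of dividing cells, read −0.45, 1.29 and 4.15 in treated hearts, against −2.40, −0.66 and 0.78 in untreated hearts, and rose by 2.14 ± 0.43 (1.15 within the middle set). Treated replicate 7 was the highest and the groups overlapped. Cdk1, the kinase of mitotic entry, rose by 1.72 (1.14), cyclin A2 (Ccna2) by 1.69 (1.24) and Prc1, which bundles microtubules of the spindle, by 1.39 (1.03). Many of these levels lay near the array median, with a list mean of 1.16 to 2.94 in treated and 0.77 to 1.55 in untreated hearts.

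Of 27 antioxidant genes 7 rose and none fell, with a median of 0.40 and −0.09 within the middle set. Haem oxygenase (Hmox1) read 1.87, 2.14 and 2.69 in treated and −1.11, 1.09 and 1.38 in untreated hearts and rose by 1.40 ± 0.31 without overlap (1.01). The metallothioneins Mt1 and Mt2 rose by 1.17 and 1.10, with 0.06 and 0.21 within the middle set. Gclm, a subunit of the enzyme that starts glutathione synthesis, rose by 1.40 and stood at −0.44 within the middle set. Of 35 heat shock and ER stress genes 3 rose and 1 fell: Pdia4, a disulphide isomerase, by 1.86 (0.86 [−0.12]), and Hspa8, a constitutive chaperone, lower by 0.68 on the log2 scale. The rises of Hspa1b (1.75) and Sdf2l1 (0.87) were lost on leaving out any 1 of 13 and 15 arrays (adjusted p up to 0.121 and 0.134). Of 23 genes of proteolysis and autophagy 3 rose and none fell: the autophagy protein Map1lc3a by 1.26 (0.40), the mitophagy receptor Bnip3 by 0.81 (−0.15) and the lysosomal protease Ctsd by 1.40 (1.21 [0.08]). The Ctsd call was lost without untreated replicate 11 (adjusted p = 0.0737).

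Of 20 macrophage markers 4 rose and 1 fell, against 12.5% and 6.98% of all genes, and the median of 0.11 was near that of all genes. Clec4d, a lectin receptor of inflammatory myeloid cells, read −0.13, 1.16 and 2.46 in treated hearts, against −2.42, −1.89 and −0.55 in untreated hearts, and rose by 2.85 ± 0.36 (adjusted p = 8.52e-09). Its groups lay apart, and it stood at 1.74 within the middle set. Lgals3, galectin 3, rose by 2.04 ± 0.34 (1.21) and the related lectin receptor Clec4n by 1.39 (0.79), each without overlap. Ccr2, the receptor of recruited monocytes, fell by 1.70 (SE 0.35; −1.03 [−0.52]), a call that ended with its 4 probe sets averaged. The mean level of the 20 markers was 2.94 to 4.27 in treated and 2.65 to 3.56 in untreated hearts.

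Of 26 chemokine and interleukin genes tested of 36 listed, 7 rose and 1 fell, with a median of 0.35 (−0.31 within the middle set). Cx3cl1 (fractalkine) rose by 1.24 without overlap (0.59), the monocyte chemokine Ccl12 by 1.31 (−0.63 [−0.01]), and the eosinophil chemokine Ccl11 fell by 1.09 (−1.01 [−0.55]). Il4ra, the interleukin 4 receptor, rose by 0.76. Of its 2 other probe sets 1 was called higher, at 1.66, and 1 lower, at −2.16. Of 27 interferon-response genes 2 rose and 1 fell: the regulator Irf7 rose by 1.65 (1.93 [1.06]) and the chemokine Cxcl9 fell by 1.42 (−1.48 [−0.97]), while Bst2 (0.75) lost its call on leaving out any 1 of 11 arrays (adjusted p up to 0.136). Of 9 lymphocyte markers limma called none, with 1 at an unadjusted p under 0.05. Of 7 markers of neutrophils and mast cells, the mast cell protease Mcpt4 rose by 1.27 (0.67 [0.26]), and S100a8 (1.25) lost its call on leaving out any 1 of 13 arrays (adjusted p up to 0.0951).

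Endothelial markers were higher, 7 of 13 with none lower and a median of 0.81 (0.32 within the middle set). Cldn5, the tight junction protein of endothelium, rose by 1.51 ± 0.32 (0.53), the TGF-beta coreceptor Eng by 1.37 (0.97 [0.26]), the cadherin Cdh5 by 1.32 (0.99) and the receptor Tie1 by 1.05 (1.10 [0.38]). Replicates 4 and 8 read 6.47 and 6.66 for Cldn5 and the other 8 treated arrays 2.88 to 4.51. Without these 2 arrays Cldn5 rose by 0.97 (adjusted p = 0.0183), and 4 of the 13 markers rose, with a median of 0.79. With dap as a covariate 2 of 13 rose. The mean level of the 13 markers was 4.63 to 5.75 in treated and 3.63 to 5.02 in untreated hearts. Of 31 genes of vascular growth and tone 7 rose and 1 fell. The ephrin receptor Ephb4 rose by 2.01 ± 0.28 without overlap (1.15 [0.63]), endothelin 1 (Edn1) by 1.35 (0.02 [0.38]), and angiopoietin 1 (Angpt1) fell by 1.17 (−1.12 [−0.66]). Of 12 smooth muscle and pericyte markers 4 rose: smooth muscle actin (Acta2) by 0.71 (0.04), and Vtn, Cspg4 and Rgs5 by 0.77, 0.84 and 0.73, calls lost on leaving out any 1 of 2, 8 and 9 arrays (adjusted p up to 0.0654, 0.0868 and 0.0753).

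Some rises concerned genes of other lineages. Dct, an enzyme of melanin synthesis, read 2.07, 2.68 and 3.89 in treated hearts, against −2.48, 0.27 and 1.43 in untreated hearts, and rose by 2.84 ± 0.44 (adjusted p = 2.26e-06). All treated arrays lay above all untreated ones, and the value within the middle set was 1.46. Mitf, the factor that drives melanocyte genes, fell by 0.80 on the probe set used while another was called higher, and 1 of the 4 melanocyte markers tested of 9 listed was higher. The keratins Krt8 and Krt18, intermediate filament proteins of epithelia and mesothelium, rose by 2.18 and 2.06 without overlap, with 1.83 and 1.56 within the middle set. In the mesothelium and epicardium list 3 of 10 rose and 1 fell, where mesothelin (Msln) rose by 1.16 (0.35) and the uroplakin Upk1b fell by 1.47 (−0.39 [−0.03]), a call that ended with the probe sets of Upk1b averaged. Of 5 Schwann cell and nerve markers Dbh, which makes noradrenaline, fell by 1.15 (−0.83 [−0.47]) and Sox10 by 1.06 (−0.13). Of 3 erythroid genes tested Slc25a37 rose by 1.34 and Alas2 by 1.50, calls lost on leaving out 1 array for the first and any 1 of 7 for the second (adjusted p up to 0.052 and 0.068). Of 3 lung, 5 skeletal muscle and 10 atrial markers tested limma called none, with 0, 1 and 3 at an unadjusted p under 0.05, and of 3 cartilage and bone genes Comp was higher. Lung markers averaged −1.93 to 0.26 in treated and −1.67 to −0.18 in untreated hearts.

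Of 20 clock genes 1 rose and 2 fell. Nfil3, a repressor in the clock, rose by 2.04 and stood at −0.28 within the middle set. Nr1d2, a nuclear receptor of the clock, fell by 0.94 (−1.07). The output gene Dbp fell by 1.41, a call lost on leaving out any 1 of 11 of the arrays (adjusted p up to 0.0884). Of 36 genes of RNA splicing 4 rose and 1 fell, with a median of −0.01. Hnrnpl, a splicing regulator, read 3.50, 3.96 and 4.31 in treated hearts, against −1.73, 0.12 and 3.90 in untreated hearts, and rose by 3.10 ± 0.58. Its value was 1.87 within the middle set and 0.41 there without untreated replicate 11. Rbfox2, a regulator of muscle splicing, rose by 2.34 (1.45), Hnrnpu by 1.05 (0.19) and the nuclear RNA Malat1 by 2.18 (1.62, and 0.44 without replicate 11). The other probe sets of Hnrnpu read −0.09, −0.40, −0.13 and 0.41 and none was called, and of those of Rbfox2 1 was called, at 0.79, while those at 0.13 and 0.30 were not.

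Within the middle set the 10 genes that passed were read over both comparisons, and they are named here because their number is small, after their values were seen. Snhg11, a host gene of small nucleolar RNAs, differed by 2.78, Slc25a1, the mitochondrial citrate carrier, by 2.74 [1.74], and Rab5c, a GTPase of early endosomes, by 2.44. Lower in treated hearts were Gnb3, a G protein beta subunit, by 2.93 on the log2 scale, Lypd2 by 2.81, Bex1 by 2.61, the aryl hydrocarbon target Cyp1a1 by 2.30, the sarcomeric protein gene Synpo2l by 2.26, Zfp420 by 1.78 and Prkab2, a subunit of AMP-activated kinase, by 1.70. Over all 21 arrays the same genes changed by 1.80, 1.41 and 1.69, and by −1.59, −1.67, −1.66, −0.85, −1.02, −1.58 and −1.22. Without untreated replicate 11 the middle set called 2 genes, Snhg11 and Gnb3, and 414 had an unadjusted p under 0.05. With 4 and 2 or 3 arrays this comparison is less precise, and a call that it lacks does not show that a gene did not change.

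**Figure D4:**
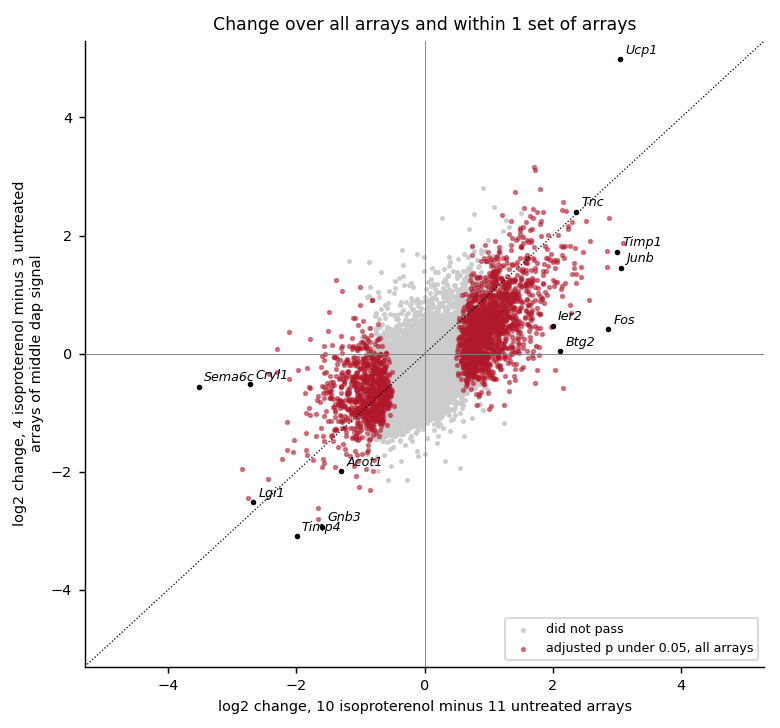
Change of each gene over all 21 arrays (x axis) against its change within the middle dap set of 4 treated and 3 untreated arrays (y axis), both log2, treated minus untreated, with the genes named. The comparisons share arrays, so the plot shows values side by side; Tnc and Lgi1 lie near the line of equality, Timp4 and Ucp1 lie farther from 0 on the y axis than on the x axis, and Fos, Btg2, Sema6c and Cryl1 lie within 1 of 0 on the y axis.

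The isoproterenol change in C57BL/6 was then set against the mean change of FVB, B2KO and B6129SF2/J, a contrast within the same fit. This difference was called for 1275 genes (10.7%), 926 higher and 349 lower in C57BL/6, with a median of 0.22 over all genes. With the dap signal as a covariate it was called for 7 higher and 12 lower. Since dap was higher in treated C57BL/6 hearts and lower in treated hearts of the other lines, line and dap signal cannot be told apart in this difference. The fit keeps treated B2KO replicate 10, whose median correlation with all arrays was 0.573, and treated FVB replicate 2, which over the 200 probe sets that best separate the untreated lines lay nearer to untreated C57BL/6 than to untreated FVB hearts (root mean square distances of 1.00 and 2.95 in log2). Without these and 6 other arrays of doubtful quality the difference was called for 2691 genes, 2059 of them higher, and without treated C57BL/6 replicates 4 and 8 for 808. Of the genes called in C57BL/6, 99 were also called in the same direction in FVB, which is 4.24% of those in C57BL/6 and 54.7% of the 181 in FVB. For B2KO it was 38 genes, 1.63% and 17.7% of 215, and for B6129SF2/J 187 genes, 8.01% and 34.4% of 543.

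Timp1, Postn and Timp4 were called in several lines. Timp1 rose by 3.00 in C57BL/6, and by 1.62, 1.90 and 2.75 in FVB, B2KO and B6129SF2/J, and its difference did not pass (0.92, adjusted p = 0.191). Postn stood at 1.94 in C57BL/6 and at 2.39, 1.13 and 2.44 in FVB, B2KO and B6129SF2/J. Timp4, which fell by 2.00 in C57BL/6, stood at −2.37, −1.45 and −1.43 in those lines, where neither gene passed in B2KO (adjusted p = 0.0679 and 0.0546). Their differences were −0.05 (adjusted p = 0.95) and −0.25 (adjusted p = 0.777).

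Among the genes that differed most between C57BL/6 and the other lines, Hnrnpl differed by 3.34 ± 0.67 (adjusted p = 0.000532): its change was 3.10 in C57BL/6 and 0.51, −1.19 and −0.06 in FVB, B2KO and B6129SF2/J. Otub1 differed by 2.91, Junb by 2.90, the zinc finger protein Zbtb12 by 2.90, Malat1 by 2.83 and the proteoglycan glypican 3 (Gpc3) by 2.71. For Junb the values in FVB, B2KO and B6129SF2/J were 0.30, 0.25 and −0.09. Malat1 stood at 0.46 and −0.45 in FVB and B2KO and fell by 1.96 in B6129SF2/J (adjusted p = 0.0178). On the lower side stood Sema6c, a semaphorin, with −3.73 ± 0.64, Cryl1, a lambda-crystallin related dehydrogenase, with −2.76, B3galt2 with −2.25, Aif1l with −2.23, the epithelial adhesion protein Epcam with −2.22 and the histidine-degrading enzyme Uroc1 with −2.16. In the middle set the C57BL/6 change of Sema6c was −0.56 [−0.13], of Cryl1 −0.52 [0.31], of Epcam −0.59, of Aif1l 0.36 and of Uroc1 0.07 [0.62], where over all arrays it was −3.53, −2.73, −1.78, −2.12 and −2.30. For Sema6c another probe set was called in the other direction, and the other probe sets of Cryl1 (0.21 and −0.01) and Aif1l (0.03) were not called. Zeb2, a transcription factor of mesenchymal cells, rose by 2.47 on the probe set used and differed by 2.59, while its 3 other probe sets read −0.43, 0.26 and −0.52 and were not called.

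**Figure D5:**
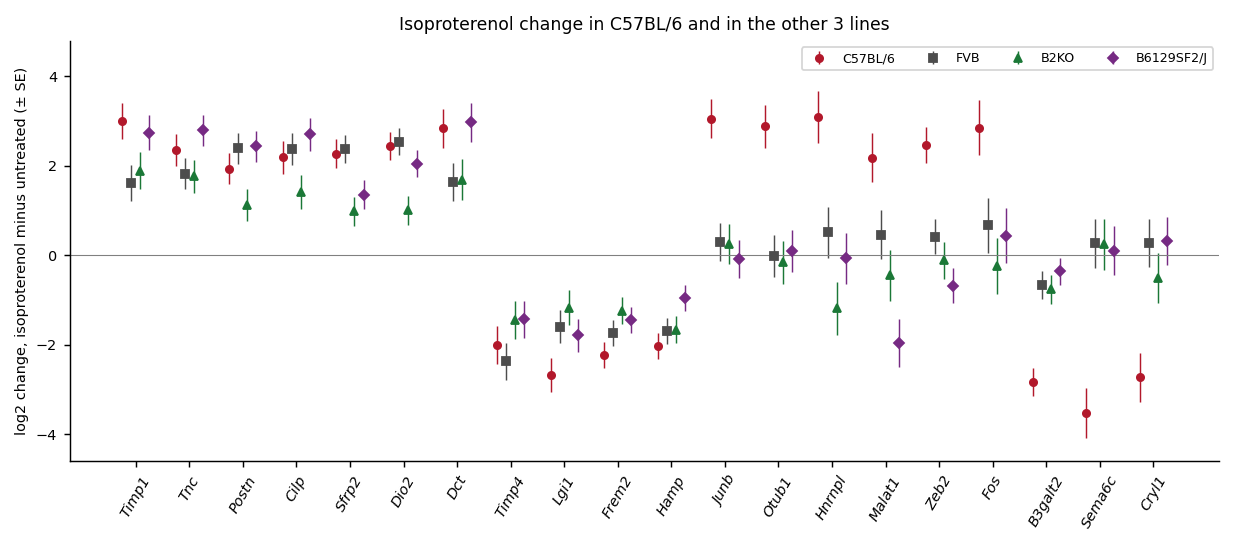
Isoproterenol change (log2, treated minus untreated, ± SE) of 20 genes in C57BL/6 and in FVB, B2KO and B6129SF2/J. Timp1, Tnc, Postn, Cilp, Sfrp2, Timp4 and Lgi1 passed in the same direction in C57BL/6, FVB and B6129SF2/J, and Otub1, Sema6c and Cryl1 lie beyond 2 log2 units in C57BL/6 and within 1 in the other lines.

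All probe sets with a single gene symbol were also tested one by one. Of 21465 probe sets above the filter, 4817 (22.4%) were called, 3015 higher and 1802 lower, in 3960 genes, and 121 genes had probe sets called in both directions. Of 68 called genes named here that have other probe sets above the filter, 40 had another called in the same direction and 28 had none. Not all probe sets without a call are listed here. Some of them read 0.25 for Sik1, −0.02 for Pde4d, 0.01 for Crem, −0.45 for Gclm, −0.26 for Nr1d2 and 0.61 for Ccna2, and −0.18, 0.09 and −0.04 for Ccr2. Those of Upk1b, which fell on the probe set used, read 1.00, 0.35 and 0.01. Malat1 shows such spread within 1 gene: besides the probe set used, its others changed by 2.31, 1.99, 1.83, 1.76 and 0.63, and 1 stood at −0.07 and did not pass.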

How the data were processed

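The arrays hold RNA of whole hearts, 10 µg of total RNA each per the labels' protocols. The authors summarised probe sets by GCRMA, per the submitters' processing notes, whose version is not given in the sources used here. The deposited values are linear intensity, and each array's median is 1, so that they read as divided by it. Their log2 was used. Of 45101 probe sets, 34945 carried 1 symbol in the platform annotation, 932 several and 9160 none, and 64 were controls. Symbols were updated from RefSeq on GRCm38.p6 by gene number, which matched 99.4%. The probe set of the highest mean stood for each of 18193 genes, and 11962 had a group mean above the array median (log2 0). All 86 columns were mapped, 1 duplicate pair of treated B2KO arrays was averaged, and 85 arrays entered 1 limma fit over 8 groups (limma 3.58.1, R 4.3.3). Tests were two-sided with Benjamini-Hochberg adjustment, and array measures were tested with 100000 permutations (SciPy 1.17.1). Precision is limited by how many arrays there are and how far they vary.

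Members and lists were chosen with earlier results of these data known. Genes were named by rule: the 12 largest rises and falls without overlap whose higher mean was at least 2, up to 4 called members of each list, a fixed set, and the 6 largest differences each way from the other 3 lines. Transcripts with clone-like symbols were passed over. Egr1, Dusp1, Maff and the 10 genes of the middle set were named after their values were seen. Of 878 listed symbols 751 were tested. Alternatives changed the scaling, filter, probe sets, variance model, covariates and arrays. Some items are not reported here.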

Additional observations from a re-analysis of the deposited data

Results flagged for a closer look

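In the 10 treated arrays the highest or lowest array was tested against the other 9 for 170 series of values, and stood apart in 23 of them. The limit used is passed by about 1 in 20 sets of independent normal values. The series are related and mostly of genes picked from these arrays, so the 23 cannot be read against that rate. Treated replicate 2 was highest for 8 genes, most of them of the matrix: Sfrp2 (5.52), Bgn (9.29), Col5a2 (7.30), Comp (6.32), Mfap5 (7.61), Omd (2.01), Gpc3 (3.82) and Lgals3 (7.48), in log2 over the array median. Treated replicate 7 was highest for Top2a (4.15), Thy1 (6.05) and Krt18 (4.81) and lowest for Ryr2 (8.86), Atp2a2 (10.41) and Ldha (8.56). Treated replicate 8 was highest for Mt2 (7.13), Pi16 (6.55), Maff (2.89) and the 3′ minus 5′ signal of Actb (1.61). Replicate 3 was highest for Arrb1 (3.89) and Cx3cl1 (3.72). Single low values were those of Zfp51 in replicate 4 (0.00), Sdf2l1 in replicate 5 (−0.81) and Uroc1 in replicate 6 (−2.28).

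For the following genes the isoproterenol change in C57BL/6 differed from the mean change of FVB, B2KO and B6129SF2/J by the test of the difference within the limma fit (adjusted p under 0.05, log2 differences in brackets). The difference was largest for Hnrnpl (3.34), Otub1 (2.91), Junb (2.90), Zbtb12 (2.90), Malat1 (2.83), Gpc3 (2.71), Zeb2 (2.59), Btg2 (2.57), Fos (2.57) and Rbfox2 (2.57). Next came Myocd (2.37), Pfn1 (2.37), Ier2 (2.15), Egr1 (2.11), Krt8 (2.09), Slc8a1 (2.08), Ephb4 (2.01), Gclm (1.87), Pdia4 (1.87), Sik1 (1.80), Kcnh2 (1.73) and Dusp5 (1.70). Then came Cldn5 (1.52), Nfil3 (1.47), Olfml2b (1.47), Npr1 (1.44), Inhbb (1.38), Hspg2 (1.36), Tgfb1 (1.33) and Map1lc3a (1.30). These were followed by Dusp1 (1.29), Clec4d (1.28), Krt18 (1.28), Cidea (1.26), Arrb1 (1.25), Irf7 (1.25), Thbs3 (1.25), Pdk4 (1.24), Fbln2 (1.22), Rab5c (1.21), Snhg11 (1.21), Nr4a2 (1.20), Mcpt4 (1.18) and Hcn2 (1.17). Smaller positive differences were those of Hnrnpu (1.07), Edn1 (1.01), Tnni3 (0.81) and Atp5g3 (0.65). The change was lower in C57BL/6 for Sema6c (−3.73), Cryl1 (−2.76), B3galt2 (−2.25), Aif1l (−2.23), Epcam (−2.22), Uroc1 (−2.16), Ccr2 (−1.74), Zfp51 (−1.64), Upk1b (−1.62) and Zfp420 (−1.52), and less so for Cxcl9 (−1.47), Fgd4 (−1.44), Nsmaf (−1.37), Abcb1b (−1.13), Akap5 (−1.10), Sox10 (−1.02), Plscr2 (−0.93), Omd (−0.89), Dbh (−0.77) and Hspa8 (−0.64).

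Added control RNAs were higher in treated than in untreated C57BL/6 arrays, and of these dap was used to form the sets and as a covariate. The mean difference was 4.41 for dap, 3.59 for lys, 3.52 for phe and 5.21 for thr, on the log2 scale. The part of this in the gene changes was not tested.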

How the results depend on the processing

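The counts of genes called depended on the processing, and the cause was not tested except where fewer or more features were tested by construction. Lower calls numbered 1766 after quantile normalization, 2032 after centring and 2225 with the 75th percentile as a covariate, where 3638 were called in all; for the difference from the other lines they numbered 1029, 1121 and 881. The stricter filter, which tested 8728 genes, left 1382 calls (971 higher, 411 lower) and 714 differences (592 and 122). All probe sets gave 4817 calls (3015 and 1802) and 2998 differences (2136 and 862). Without the 8 arrays of doubtful quality there were 3998 calls, 2879 of them higher, and 2691 differences (2059 and 632), and with array weights 3812 calls (2264 and 1548) and 2964 differences (2214 and 750). The following were chosen after seeing the data. With dap as a covariate there were 1358 calls, 476 of them higher, and 19 differences (7 and 12). Without treated replicates 4 and 8 there were 1739 calls (1066 and 673) and 808 differences (555 and 253), and 25 of the 157 called genes that are named lost the call. The middle set alone gave 10 calls (3 and 7), 2 without untreated replicate 11 (1 and 1), 23 after quantile normalization (8 and 15), 95 after centring (58 and 37) and 89 with C57BL/6 arrays alone (36 and 53).

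Leaving out 1 array gave 1864 to 2520 calls (1123 to 1624 higher, 675 to 946 lower) and 883 to 1517 differences (603 to 1118 and 250 to 451), and 603 higher differences came without untreated replicate 6. In the 3 array measures no alternative passed: without replicate 11 the differences were 0.20 for the 75th percentile, 0.10 for Gapdh and 0.30 for Actb. Replicate numbers do not pair the arrays: over 10 pairs r was −0.234 to 0.0425, and no array correlated best with its own number. With a replicate block 2145 genes were called (1376 and 769) and 1116 differences.

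Of 157 called genes that are named, 121 kept their call in every planned setting. With probe sets averaged Atp2a2 stood at −0.073 and Mitf at 0.29. The direction turned within the middle set for Aif1l (0.36), Atp2a2 (−0.0006), Atp5g3 (−0.13), Bnip3 (−0.15), Bst2 (−0.37), Ccl12 (−0.63), Dusp1 (−0.11), Egr1 (−0.50), Gclm (−0.44), Hcn2 (−0.20), Nfil3 (−0.28), S100a8 (−0.091), Slc8a1 (−0.27), Tnni3 (−0.025), Uroc1 (0.073) and Vtn (−0.078). Without untreated replicate 11 it turned there for Aif1l (0.53), Akap5 (0.32), Atp5g3 (−0.015), Bnip3 (−0.024), Bst2 (−0.24), Btg2 (−0.15), Ccl12 (−0.0125), Cryl1 (0.31), Egr1 (−0.12), Gclm (−0.45), Pdia4 (−0.12), Ppara (−0.0335), S100a8 (−0.48), Sdf2l1 (−0.31), Slc8a1 (−0.50), Smad6 (−0.20), Sox10 (0.10) and Uroc1 (0.62). These within-set values passed no test.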
